A study of Mus musculus with 16 samples.

Results

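The libraries labelled TRF2 knockout at 3 days post-injury (3 DPI) were compared with the wild type libraries of the same day. These are 8 of the 16 libraries of the series, 4 per genotype, and were taken by their labelled genotype and treatment. RNA came from muscle stem cells (MuSCs) of mice in which floxed TRF2 is removed by the tamoxifen-inducible Cre of a Pax7-CreERT2 allele, so that deletion is limited to cells that used Pax7 when tamoxifen was given, and from mice labelled Wildtype, whose alleles and tamoxifen treatment the labels do not give. Each mouse had received 10 µl of notexin, a myotoxic snake venom, in the tibialis anterior muscle. Per the study's methods, cells were sorted from all hindlimb muscles as negative for CD45, CD31, CD11b and Sca1 and positive for α7-integrin and for VCAM or CD34, without saying which of the latter served for these libraries, so that muscles that were not injected may have contributed cells. The design text calls the 4 libraries of a group biological replicates. The question was how loss of TRF2 alters the transcriptome of MuSCs in regenerating muscle.

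TRF2, encoded by Terf2, is a subunit of shelterin, the complex that covers telomeres. MuSCs lie between the myofiber and its basement membrane, hold on to both through α7-integrin, dystroglycan and M-cadherin, and are quiescent until injury. On injury they enter the cell cycle and express Myod1, and their progeny express Myog and fuse into new fibers, while macrophages and fibroadipogenic progenitors accumulate around them.

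The sequences upstream of 3 genes described below are shown because the genes were called lower without knockout replicate 3, a library that stands apart, and represent a filament, an adhesion receptor and a membrane lectin. They are the 250 bases before the start site in the promoter table from RefSeq (GRCm38.p6), 5′ to 3′ on the strand of the gene, with each E-box (CANNTG, the core letters bound by MyoD-family factors, which read as CANNTG on either strand) in capitals. Des, which encodes desmin, is shown from chr1:75360042-75360291 on the plus strand. Dag1, which encodes dystroglycan, is shown from chr9:108263959-108264208 on the minus strand, the first of 2 start sites in the table. Chodl, which encodes chondrolectin, is shown from chr16:78930698-78930947 on the plus strand.
Des: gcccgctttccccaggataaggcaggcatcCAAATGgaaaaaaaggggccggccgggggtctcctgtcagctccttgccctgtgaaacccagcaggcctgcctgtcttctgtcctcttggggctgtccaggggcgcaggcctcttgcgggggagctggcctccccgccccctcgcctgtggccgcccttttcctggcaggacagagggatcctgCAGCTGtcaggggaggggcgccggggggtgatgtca
Dag1: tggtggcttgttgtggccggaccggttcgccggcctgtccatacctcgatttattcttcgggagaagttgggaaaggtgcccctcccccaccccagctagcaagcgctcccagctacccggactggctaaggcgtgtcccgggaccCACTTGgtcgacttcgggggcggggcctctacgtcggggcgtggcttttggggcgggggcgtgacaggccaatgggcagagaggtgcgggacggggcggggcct
Chodl: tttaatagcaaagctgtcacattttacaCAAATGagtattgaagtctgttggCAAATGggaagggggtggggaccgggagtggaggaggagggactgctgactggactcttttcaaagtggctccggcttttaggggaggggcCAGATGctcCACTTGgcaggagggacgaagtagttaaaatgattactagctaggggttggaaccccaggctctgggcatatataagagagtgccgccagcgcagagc
The Des stretch held 2 E-boxes, that of Dag1 held 1 and that of Chodl held 4. An E-box was present in 7 of the 9 genes called lower that had an entry (77.8%), beside 66.2% of all 32851 promoter stretches of this length. For the 9 the first start site of each gene was taken, whereas the 32851 stretches count every start site of 27025 genes. The variant CAGCTG, which is one of the E-boxes, was present in 1 of the 9, that of Des, beside 13% of all.

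Library totals ran from 620506 to 1304088 counts in wild type and from 687418 to 862825 in the libraries labelled TRF2 knockout. Replicate 3 of the knockout stood apart from the other 7 libraries. It had 15387 genes with a count, where the other knockout libraries had 21189, 20537 and 19996 and the wild type libraries had 21354 to 21879. Every knockout library was below every wild type library (p = 0.0286 in a two-sided exact permutation test, which 4 against 4 libraries cannot go under), and the p was 0.0571 after thinning to equal totals. Its median correlation with the wild type libraries was 0.423, and that of the others with wild type ran from 0.724 to 0.883. On the first principal component, which held 59.8% of the variance, it scored 204 and the other libraries -38.0 to -18.3. Counts of calls are therefore given with and without it, and so are the fold changes of the called genes that were tested in both fits and had counts in both groups. Knockout replicates 3 and 4 also carry a description code that no wild type library of this day carries. Wild type replicates 3 and 4 in turn carry a code that no knockout library of this day carries. In those libraries of both genotypes, code and genotype cannot be told apart.

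**Figure D1:**
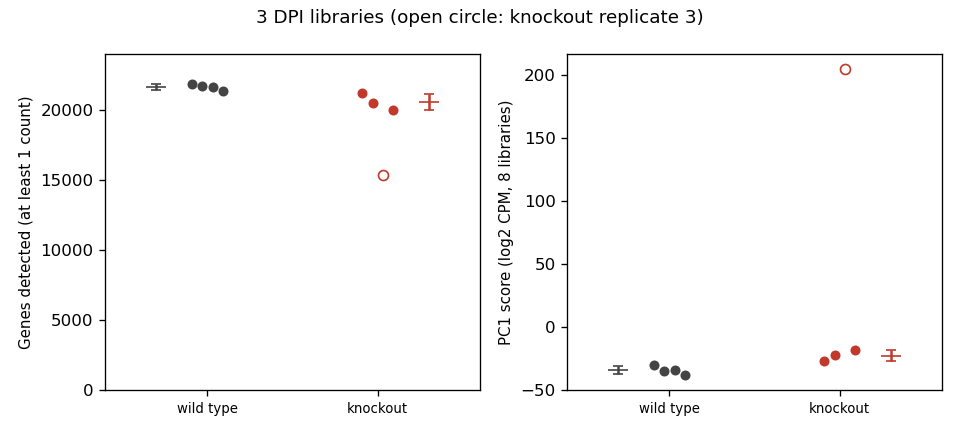
Genes with at least 1 count (left) and score on the first principal component of log2 CPM (right) for each 3 DPI library, with the group mean ± SD beside the points. The knockout bar leaves out replicate 3 (open circle), which had 15387 genes detected and a score of 204.

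The targeted gene was examined first. Terf2 (chromosome 8, 107069400 to 107096547, minus strand, GRCm38) was at 38.0, 51.2, 50.3 and 44.9 CPM (counts scaled to library size after TMM normalization) in wild type replicates 1 to 4. It was at 56.0, 23.8, 75.3 and 96.3 CPM in the libraries labelled TRF2 knockout. Only replicate 2 was below every wild type library, and the groups overlapped. The log2 fold change was 0.44 (SE 0.42, adjusted p = 0.755), and 0.33 (SE 0.37, adjusted p = 0.758) without replicate 3. The direction of Terf2 turned to -0.24 without replicates 3 and 4, and to -0.18 over the 4 libraries of the description code that both genotypes share. In uninjured muscle the log2 fold change of Terf2 was -0.62 (SE 0.27, adjusted p = 0.199), also not called. The study reports lower Terf2 RNA and TRF2 protein in MuSCs of its knockout mice after tamoxifen, in a figure on uninjured muscle. It also reports that Terf2 RNA of MuSCs drops at 2 and 3 days after injury. Wild type libraries of uninjured muscle, scaled among the uninjured libraries, held 65.6 to 88.6 CPM of Terf2. The study's finding in knockout mice and the 3 DPI values above are thus of different times. Counts per gene cover the whole transcript, and reads over the floxed exons were not analysed here. The genotype is therefore given as labelled throughout. The other 6 shelterin genes (Terf1, Terf2ip, Tinf2, Acd, Pot1a and Pot1b) were not called in either fit.

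Markers of the sorted cells were present in every library, together with those of other cells. Pax7, the transcription factor that defines MuSCs, was at 136 to 193 CPM in wild type and at 26.2 to 143 CPM in the knockout. Lyz2, the lysozyme of macrophages, was at 2280 to 2882 CPM in wild type and at 732 to 2674 CPM in the knockout, although the gate removes CD45 and CD11b positive cells. Summed over 12 macrophage markers, libraries held 5780 to 7039 CPM in wild type and 4893 to 6647 CPM in the knockout without replicate 3, which held 2522 CPM. The 8 fibroadipogenic markers summed to 3907 to 6115 CPM in wild type and 3135 to 6333 CPM in the knockout. None of these markers was called in either fit, and their part in the results was not tested. In bulk RNA, fewer cells of a type and less of an RNA per cell cannot be told apart.

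With all 8 libraries, edgeR called 0 of 14559 genes (0%) at an adjusted p-value under 0.02 and a fold change over 1.5. The smallest adjusted p was 0.418, and 521 genes were lower and 841 higher at an unadjusted p under 0.05 (3.58% and 5.78%). On the same libraries limma with a robust fit called 1 gene, limma-voom 0, limma-voom with sample quality weights 2 (Dag1 and Des) and DESeq2 22. Without knockout replicate 3, 13 genes were called lower (0.0843% of 15430) and 3 higher (0.0194%). Over all 8 libraries the genotypes did not overlap in 7.65% of all genes tested. Since the 16 genes were called on 7 of these libraries, whether their groups overlap is given below as a description only. The biological coefficient of variation was 0.495 with the library and 0.333 without it. The values that follow are CPM in replicates 1 to 4, and a fold change is from the fit without knockout replicate 3 unless stated.

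Dag1, Itga7 and Cdh15, whose proteins attach MuSCs to the fiber or its basement membrane, were called lower without knockout replicate 3. Dag1 (chromosome 9, 108204634 to 108263958), whose protein links laminin to dystrophin, was at 633, 671, 774 and 749 CPM in wild type and at 305, 335, 360 and 254 CPM in the knockout. All 4 knockout libraries, replicate 3 included, were below all 4 wild type libraries. Dag1 fell by 1.26 on the log2 scale (SE 0.21, adjusted p = 0.00457), which is 2.39-fold, and the log2 fold change was -1.17 (SE 0.20, adjusted p = 0.418) with all 8.

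Itga7 (chromosome 10, 128933818 to 128958282), the α7-integrin chain that binds laminin and on which the cells were sorted, was at 187, 284, 231 and 237 CPM in wild type. It was at 99.6, 105, 46.0 and 45.0 CPM in the knockout, again without overlap. It was 2.84-fold lower (log2 fold change -1.50, SE 0.27, adjusted p = 0.00974), and its log2 fold change was -1.66 (SE 0.32, adjusted p = 0.420) with all 8. The other positive markers of the gate overlapped between genotypes and were not called. Vcam1 had a log2 fold change of -0.63 (SE 0.31, adjusted p = 0.402), and -0.59 (SE 0.34, adjusted p = 0.609) with all 8. Cd34 had one of -0.08 (SE 0.26, adjusted p = 0.926), and -0.30 (SE 0.34, adjusted p = 0.802) with all 8. Cdh15, which encodes M-cadherin, the cadherin between MuSC and fiber, was at 137, 223, 131 and 202 CPM in wild type and at 27.4, 76.6, 1.39 and 47.5 CPM in the knockout. The groups did not overlap, and replicate 3 was the lowest. Its log2 fold change was -1.80 (SE 0.31, adjusted p = 0.00604), and -2.17 (SE 0.61, adjusted p = 0.452) with all 8.

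Adgre5, the adhesion G protein-coupled receptor CD97, was at 198, 250, 169 and 208 CPM in wild type and at 83.4, 47.7, 126 and 77.5 CPM in the knockout. The groups did not overlap, and the log2 fold change was -1.58 (SE 0.26, adjusted p = 0.00457), and -1.31 (SE 0.30, adjusted p = 0.452) with all 8. Chodl, a membrane lectin enriched in MuSCs, differed in this respect. It was at 61.1, 33.8, 75.9 and 80.3 CPM in wild type and at 6.23, 16.3, 146 and 3.75 CPM in the knockout. Replicate 3 was the highest of all 8 libraries and the other 3 knockout libraries the lowest, so that the log2 fold change was -2.84 (SE 0.48, adjusted p = 0.00604) without it and -0.55 (SE 0.86, adjusted p = 0.861) with it.

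**Figure D2:**
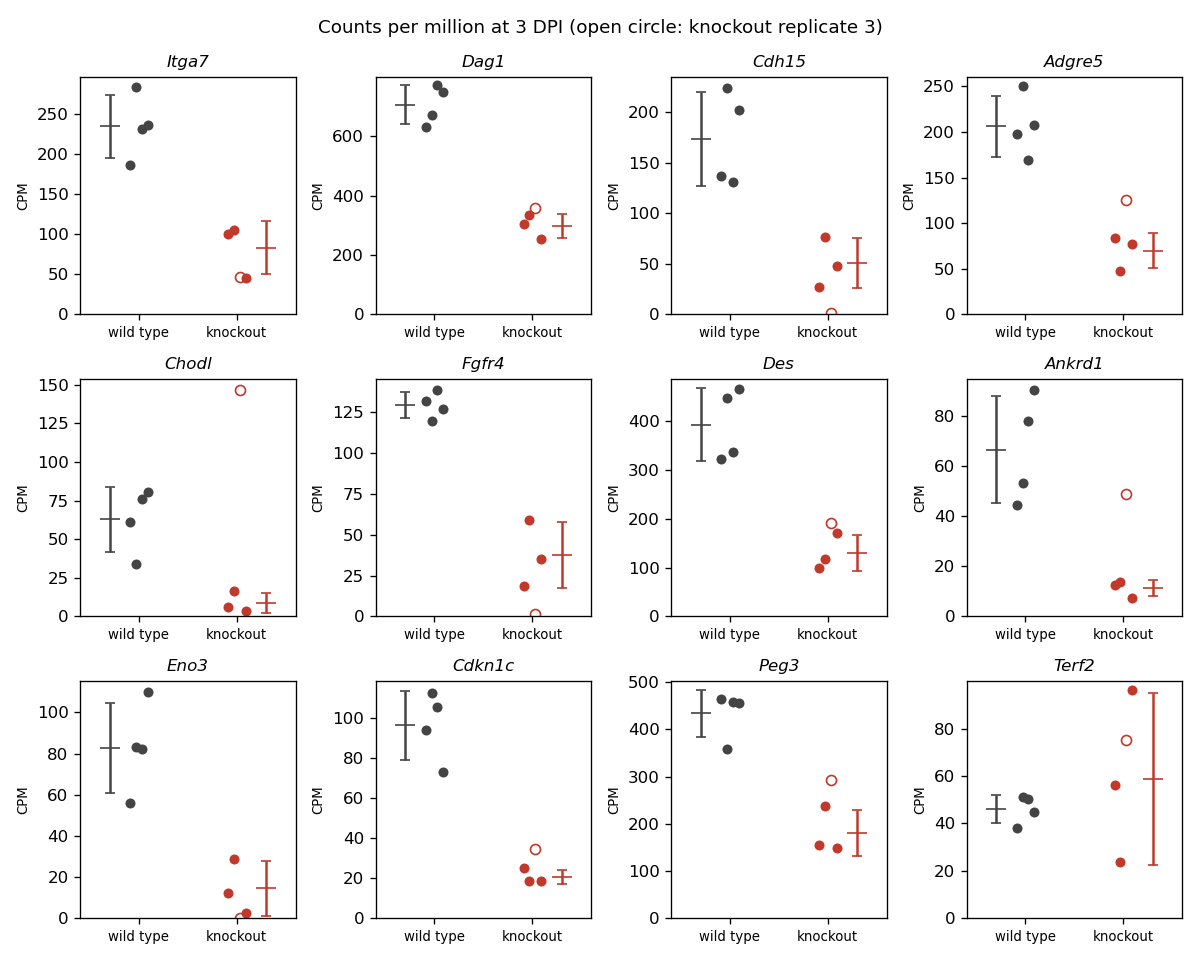
CPM of 11 called genes and Terf2 in each 3 DPI library, with the group mean ± SD beside the points and all axes from 0. The knockout bar leaves out replicate 3 (open circle), which lies with the other knockout libraries for Dag1, Itga7 and Cdkn1c, is the highest of all for Chodl, and reaches the wild type range for Ankrd1.

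Des, the muscle intermediate filament and an early marker of myogenic cells, was at 322, 447, 337 and 467 CPM in wild type and at 99.6, 118, 191 and 171 CPM in the knockout. The groups did not overlap. Des fell 3.06-fold (log2 fold change -1.61, SE 0.24, adjusted p = 0.00273), and the log2 fold change was -1.44 (SE 0.26, adjusted p = 0.418) with all 8.

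Fgfr4, a fibroblast growth factor receptor of myogenic cells, was at 132, 120, 139 and 127 CPM in wild type and at 18.7, 59.0, 1.39 and 35.0 CPM in the knockout. Wild type libraries lay close together, and all 4 knockout libraries were below them. The log2 fold change was -1.79 (SE 0.31, adjusted p = 0.00732), and -2.17 (SE 0.59, adjusted p = 0.452) with all 8.

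Ankrd1, a muscle ankyrin repeat protein of the sarcomere and nucleus, was at 44.6, 53.3, 78.0 and 90.6 CPM in wild type and at 12.5, 13.8, 48.8 and 7.50 CPM in the knockout. Replicate 3 overlapped wild type and the others did not. The log2 fold change was -2.57 (SE 0.42, adjusted p = 0.00457), against -1.70 (SE 0.56, adjusted p = 0.453) with all 8. Eno3, the muscle enolase of glycolysis, was at 56.2, 83.0, 82.1 and 110 CPM in wild type and at 12.5, 28.9, 0 and 2.50 CPM in the knockout. All knockout libraries were lower, and the log2 fold change was -2.51 (SE 0.46, adjusted p = 0.0118), and -2.89 (SE 0.75, adjusted p = 0.452) with all 8.

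Of 18 tested imprinted growth genes, 2 (Cdkn1c and Peg3) were called lower and 0 higher, beside 0.0843% and 0.0194% of all genes. At an unadjusted p under 0.05, 6 were lower and 1 higher, where 6.5% and 6.21% of all genes were. With all 8 libraries 6 of 17 were lower and 0 higher, where 3.58% and 5.78% of all genes were. The median log2 fold change of the list was -0.12, and -0.37 with all 8. The list was chosen with earlier results of these data known and holds Cdkn1c, a marker taken beforehand, so that its counts are a description only. Cdkn1c (chromosome 7, 143458339 to 143461050), which encodes the cyclin-dependent kinase inhibitor p57, was at 94.2, 113, 106 and 73.4 CPM in wild type and at 24.9, 18.8, 34.9 and 18.8 CPM in the knockout. No knockout library reached the wild type range. Cdkn1c fell 4.63-fold (log2 fold change -2.21, SE 0.33, adjusted p = 0.00273), and its log2 fold change was -1.98 (SE 0.35, adjusted p = 0.418) with all 8. Peg3, an imprinted zinc finger protein of muscle and other stem cells, was at 464, 359, 458 and 456 CPM in wild type and at 156, 237, 293 and 149 CPM in the knockout. The groups did not overlap, and the log2 fold change was -1.27 (SE 0.23, adjusted p = 0.00855), and -1.06 (SE 0.26, adjusted p = 0.452) with all 8.

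Another 5 called genes had low or uncertain counts. A730008H23Rik, an older symbol of Hjurp, a chaperone of centromeric histone, was at 18.1 to 51.2 CPM in wild type and had 0 counts in all 4 knockout libraries, so that it was at least 35.8-fold lower, taking 3 counts over the group as the floor. Ubald2 was at 13.3 to 47.9 CPM in wild type and also had 0 counts in the knockout, at least 28.5-fold lower by the same floor. In uninjured muscle A730008H23Rik was at 23.1 to 48.1 CPM in wild type and at 0, 0, 45.9 and 34.3 CPM in the knockout. Ubald2 was there at 4.12, 0, 0 and 0 CPM in wild type and at 17.3, 0, 0 and 23.3 CPM in the knockout. At 3 DPI, Gm10377 had 0 counts in wild type and 23.7, 18.8, 0 and 35.0 CPM in the knockout. Il11ra2, a receptor gene with near-identical copies, had counts in 1 wild type library, at 6.15 CPM, and was at 24.9, 47.7, 0 and 68.8 CPM in the knockout. Replicate 3 thus lacked both transcripts that the other 3 knockout libraries held. 4933438K21Rik, annotated as antisense, was at 57.8, 43.0, 78.0 and 45.8 CPM in wild type and at 142, 122, 261 and 210 CPM in the knockout, without overlap (log2 fold change 1.48, SE 0.27, adjusted p = 0.0120, and 1.71, SE 0.32, adjusted p = 0.418, with all 8). Genes with near-identical copies are uncertain, because counting can split reads among them, and so is an antisense gene here, since the library preparation keeps strand but the strand setting of the counting is not given in the sources used here.

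**Figure D3:**
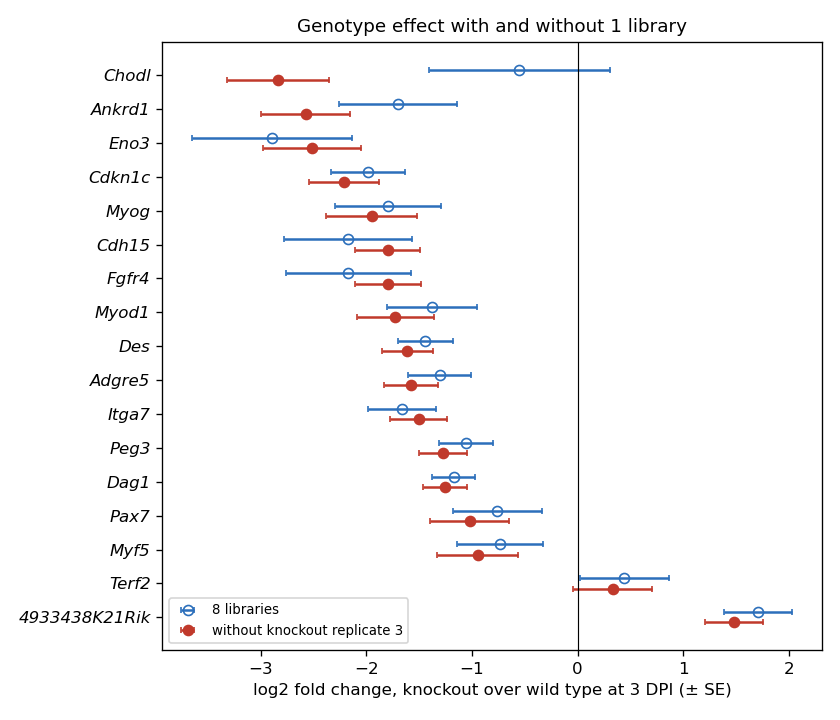
Log2 fold change (knockout over wild type, ± SE) of called genes, 4 myogenic regulators and Terf2, with all 8 libraries (open) and without knockout replicate 3 (filled). Genes with 0 counts in a whole group and those not tested with 8 libraries are left out. Chodl moves from -0.55 to -2.84 and Dag1 from -1.17 to -1.26.

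Most calls made without knockout replicate 3 were lost in some fits with 1 library fewer. Leaving out 1 more of the 7 libraries in turn, A730008H23Rik was called in 7 of 7 fits, Cdkn1c in 6, Des in 5, Ankrd1 and Ubald2 in 4 and Il11ra2 in 3. Dag1, Adgre5 and Chodl were called in 2 of 7, and Itga7, Cdh15, Fgfr4, Eno3, Peg3, Gm10377 and 4933438K21Rik in 1 of 7. Counting every alternative without knockout replicate 3, A730008H23Rik was called in 12 of 18, and Cdkn1c and Des in 14 of 19 each. A730008H23Rik was not called by limma-voom, with or without quality weights, or by DESeq2. Nor was it called with all groups in 1 fit, on the scaled table or with the shared description code.

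The myogenic regulatory factors were not called. Myod1, the factor of activated and committed myoblasts, was at 56.2, 109, 66.7 and 117 CPM in wild type and at 16.2, 38.9, 54.4 and 25.0 CPM in the knockout. The groups did not overlap, with a log2 fold change of -1.72 (SE 0.36, adjusted p = 0.0474), above the threshold of 0.02, and -1.38 (SE 0.43, adjusted p = 0.452) with all 8. Myog, the factor of differentiating myocytes, was at 44.6, 88.1, 83.1 and 88.9 CPM in wild type and at 6.23, 16.3, 27.9 and 37.5 CPM in the knockout. Its groups did not overlap either, and the log2 fold change was -1.95 (SE 0.43, adjusted p = 0.0572), and -1.79 (SE 0.50, adjusted p = 0.452) with all 8. Pax7 overlapped between genotypes, with a log2 fold change of -1.02 (SE 0.37, adjusted p = 0.266), and -0.76 (SE 0.42, adjusted p = 0.590) with all 8. Myf5, the earliest regulator of the family, did not overlap between genotypes and had a log2 fold change of -0.94 (SE 0.38, adjusted p = 0.293), and -0.73 (SE 0.41, adjusted p = 0.590) with all 8.

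Of 32 tested genes in a list of MuSC identity genes, 6 were called lower (Itga7, Cdh15, Chodl, Fgfr4, Cdkn1c and Peg3) and 0 higher, beside 0.0843% and 0.0194% of all genes. At an unadjusted p under 0.05, 18 were lower and 0 higher, where 6.5% and 6.21% of all genes were. With all 8 libraries 11 were lower and 0 higher, where 3.58% and 5.78% of all genes were. The median log2 fold change of the list was -0.75, beside 0.02 over all genes tested, and -0.66 with all 8, beside 0.0014. Its summed level was 3915 to 4323 CPM in wild type and 2372 to 2773 CPM in the knockout, replicate 3 included. Such a separation was not particular to this list, since 14 of 51 list sums, of lists that share genes, were lower in every knockout library than in every wild type library, and 0 were higher. The list was chosen with earlier results of these data known and holds Itga7 and Cdkn1c, which were taken as markers of this comparison beforehand. Its counts are therefore a description only. The same holds for Des, Dag1 and Itga7 in the lists of the next paragraph. Beyond the called genes, and chosen after their values were seen, the tetraspanin Cd82 had a log2 fold change of -1.32 (adjusted p = 0.0605) and the growth arrest gene Gas1 -1.28 (adjusted p = 0.0745). With all 8 the adjusted p of each was 0.452.

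Of 32 tested differentiation and fusion genes, Des and Cdh15 were called lower and 0 were called higher, beside 0.0843% and 0.0194% of all genes. At an unadjusted p under 0.05, 5 were lower and 3 higher, beside 6.5% and 6.21% of all genes, and the median was -0.09. With all 8 libraries 4 of 29 were lower and 4 higher, beside 3.58% and 5.78% of all genes, with a median of -0.12. Among those not called, and chosen after their values were seen, Chrna1, a subunit of the muscle acetylcholine receptor, had a log2 fold change of -1.68 (SE 0.46, adjusted p = 0.452) with all 8, and Myh8, the perinatal myosin, one of 1.73 (SE 0.45, adjusted p = 0.452). Both values include knockout replicate 3, whose sum over the list was the highest of the knockout (3075 CPM, the others 1912 to 2658 CPM). In the dystrophin complex list, Dag1 was the 1 gene called lower of 22 tested, beside the same 0.0843% of all genes, and the median was -0.10, against 0.08 with all 8 libraries. In the integrin list, Itga7 was the 1 called lower of 19, and the median was 0.20, against -0.12 with all 8, so that the sign of both medians turned with 1 library.

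Of 21 basement membrane genes, 0 were called, and 6 were lower and 0 higher at an unadjusted p under 0.05 in either fit, beside 6.5% and 6.21% of all genes without knockout replicate 3 and 3.58% and 5.78% with it. Their median was 0.02 without it and -0.14 with it. Of 15 tested genes of cyclin-dependent kinase inhibitors and cyclins, 1 (Cdkn1c) was called lower, beside 0.0843% of all genes. The lists of S phase genes and of G2 and M phase genes had 0 calls. At an unadjusted p under 0.05, where 6.5% of all genes were lower, 10 of 41 S phase genes and 5 of 44 G2 and M phase genes were lower. With all 8 libraries, where 3.58% of all genes were lower, 3 of 39 and 1 of 43 were. Of 48 tested replication histone genes, 13 were lower by that measure and the median was -0.73, against 5 of 34 and -0.99 with all 8. Of 82 tested ribosomal protein genes, 64 were lower and 0 higher by that measure, 0 were called, and the median was -0.69, against 51 of 81 and -0.89 with all 8. Their sum was 17790 to 27721 CPM in wild type and 13532 to 16098 CPM in the knockout without replicate 3, which held 8579 CPM. Ribosomal protein genes share reads with pseudogenes and are uncertain.

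Lists of the p53, DNA damage and interferon responses had 0 calls, which does not show that these genes were unchanged. At an unadjusted p under 0.05, 6.5% of all genes were lower and 6.21% higher without knockout replicate 3, and 3.58% and 5.78% with all 8. Counts of p53 targets and DNA damage response genes lay near these shares. Of 31 p53 targets, 3 were lower and 2 higher by that measure, with a median of -0.10, against 1 and 2 of 30 and a median of -0.04 with all 8. Of 25 DNA damage response genes 2 were lower and 1 higher, with a median of -0.26 that was 0.13 with all 8, where 1 was lower and 1 higher. Of 32 interferon-stimulated genes, 8 were lower and 0 higher, with a median of -0.35, against 5 and 0 with a median of -0.51.

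**Figure D4:**
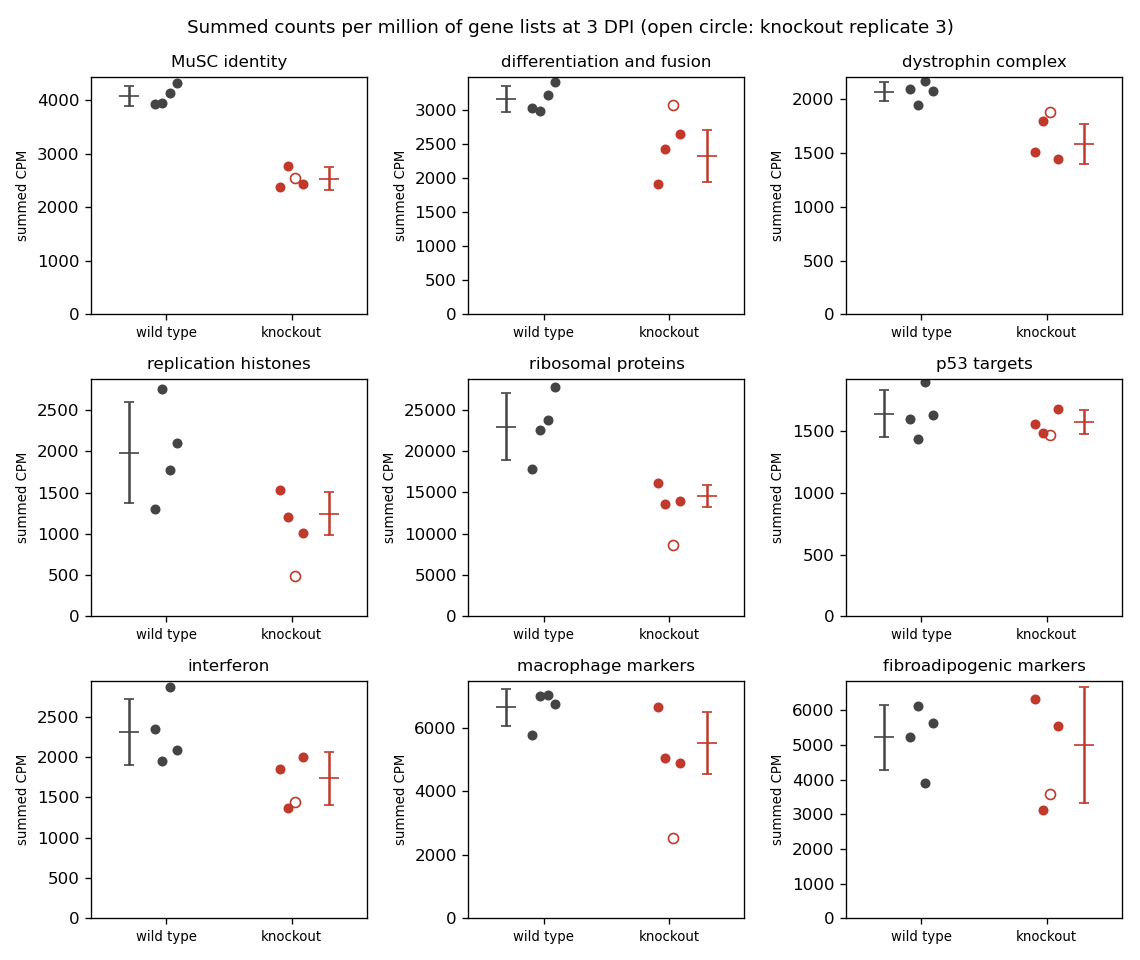
Summed CPM of 9 gene lists in each 3 DPI library, with the group mean ± SD beside the points and axes from 0. The knockout bar leaves out replicate 3 (open circle). For MuSC identity genes, as for 14 of 51 lists in all, every knockout library (2372 to 2773) lies below every wild type library (3915 to 4323), while p53 targets and fibroadipogenic markers overlap.

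The genotype effect at 3 DPI was set beside that of uninjured muscle, where 370 genes were called lower (2.63% of 14048) and 82 higher (0.584%). Of the 16 genes called at 3 DPI without knockout replicate 3, 13 were tested in uninjured muscle and 6 were called the same way there, namely Dag1, Itga7, Cdkn1c, Adgre5, Cdh15 and Fgfr4. The difference of the 2 genotype effects was tested in 1 fit of all 16 libraries, which called 3 genes (0.0178% of 16822). None of these 3 was among the 16. Without knockout replicate 3, the difference was called for 13 genes (0.0738% of 17610), including Chodl, whose genotype effect was lower at 3 DPI by 2.39 on the log2 scale (interaction -2.39, SE 0.46, adjusted p = 0.00733). With all 16 libraries the Chodl interaction was -0.060 (SE 0.95, adjusted p = 0.996), so that this call rests on leaving out 1 library. With a replicate block the fit of all 16 libraries called 1 gene in place of 3.

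The 3 genes called with all libraries were Cdkn1a, Gas6 and Ccng1. Cdkn1a, the p53-induced inhibitor p21, was at 132, 139, 221 and 155 CPM in wild type and at 147, 131, 183 and 143 CPM in the knockout at 3 DPI. The groups overlapped, whereas in uninjured muscle its log2 fold change was 2.37 (SE 0.20, adjusted p = 3.5e-11). Gas6, a ligand of TAM receptor kinases, was at 216 to 243 CPM in wild type and 218 to 269 CPM in the knockout at 3 DPI, beside a log2 fold change of 2.15 in uninjured muscle. Ccng1, a p53-induced cyclin, was at 92.5, 101, 107 and 104 CPM in wild type and at 51.1, 59.0, 60.0 and 63.8 CPM in the knockout at 3 DPI. Its groups did not overlap and its log2 fold change was -0.81 (adjusted p = 0.188, and -0.79, adjusted p = 0.455, with all 8), beside 1.68 in uninjured muscle.

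**Figure D5:**
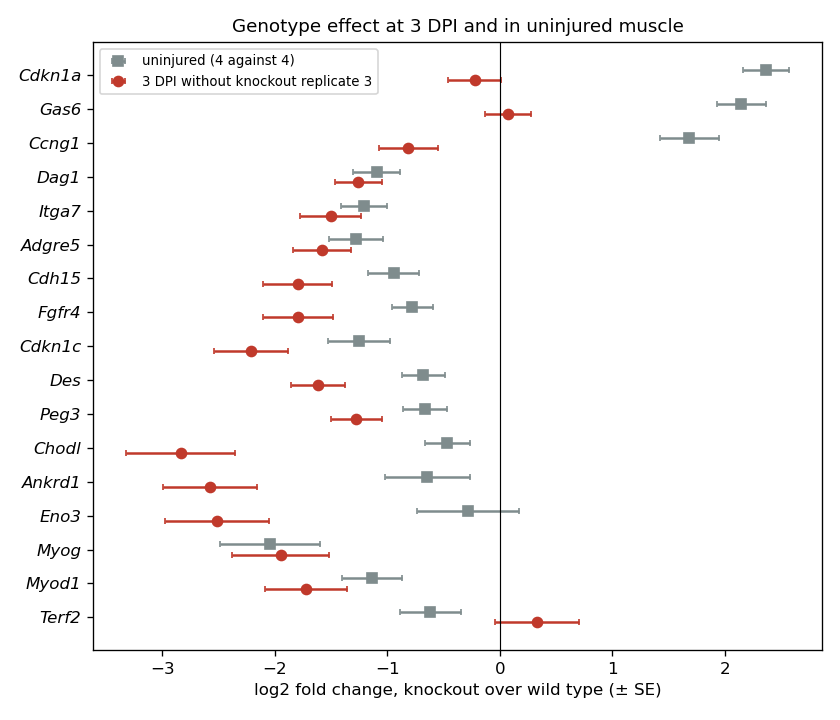
Log2 fold change (knockout over wild type, ± SE) in uninjured muscle (squares, 4 against 4 libraries) and at 3 DPI without knockout replicate 3 (circles, 4 against 3). Cdkn1a, Gas6 and Ccng1 are higher in the uninjured knockout (2.37, 2.15 and 1.68) and at -0.22, 0.07 and -0.81 at 3 DPI.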

How the data were processed

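RNA of sorted MuSCs was made into libraries with the CORALL kit. Per the labels and methods, the authors trimmed reads (Trim Galore 0.6.7), aligned them to GRCm38 with STAR and quantified them with Salmon 1.5.2. STAR is given as 2.6.1d in the submitters' processing notes and under another version in the methods. The authors deposited estimated counts per gene, not normalized, and a second table of scaled estimated counts, used as an alternative. Per the methods the kit keeps strand and adds unique molecular identifiers. Whether reads were collapsed by identifier, and the strand setting of the quantification, are not given in the sources used here.

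Estimated counts were rounded. Libraries totalled 620506 to 1304088 counts. After filterByExpr and TMM scaling, edgeR 4.0.16 in R 4.3.3 gave a robust quasi-likelihood test per gene, with Benjamini-Hochberg adjustment over all genes. Calls needed an adjusted p under 0.02 and a fold over 1.5. The main fit was not blocked by replicate number. CPM at 3 DPI used TMM factors of the 8 libraries, CPM of uninjured muscle those of the uninjured libraries, and log2 CPM a prior count of 2. Single values were compared by exact permutation tests, two-sided. Alternatives used limma 3.58.1 and DESeq2 1.42.0. Scripts were tested on simulated data. There, with 8 libraries, edgeR called 0% of changes of 1 on the log2 scale and 24.7% of changes of 2. Without knockout replicate 3 it called 15.8% and 79.5%, so that a gene not called may still differ. Fits without knockout replicate 3 were chosen with earlier results known in which that library stood apart, and the alternatives repeated on the other 7 libraries were added after seeing the data. No pair of libraries agreed within sampling noise (lowest chi-square per degree of freedom 2.97).

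The comparison, gene lists and genes named were chosen with earlier results of these data known. Named are the shelterin genes, Dag1, Des, Itga7, Cdkn1c, the genes of the sort gate, Pax7, Myf5, Myod1, Myog, the 12 called genes of largest fold per direction, the 5 of largest fold per direction without knockout replicate 3 (mean log2 CPM of at least 1, no overlap), called genes of a list, and the 3 interaction genes with the lowest p. Positions come from GENCODE M21 (GRCm38), which matched 23376 of 24411 genes. Of the 13 genes called lower, 9 had an entry in the promoter table.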

Additional observations from a re-analysis of the deposited data

Results flagged for a closer look

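Within the 4 libraries of a genotype, 84 sets of values were examined for a library far from the other 3, and 9 were found, where chance gives about 1 in 20 sets. In 5 of the 9 the library was knockout replicate 3. Chodl and Ankrd1 were named because they were called without that library, so that the chance rate does not hold for them. It held 146 CPM of Chodl where the other knockout libraries held 3.75 to 16.3, 48.8 CPM of Ankrd1 (7.50 to 13.8), 36.3 CPM of Myf5 (22.4 to 22.6) and 33.5 CPM of the shelterin gene Tinf2 (11.3 to 12.5). Its score on the first principal component was 204 (-27.1 to -18.3). In wild type, replicate 1 held 44.6 CPM of Myog (83.1 to 88.9), and its 100 most abundant genes took 16.4% of counts (18.9 to 19.2). Wild type replicate 2 held 359 CPM of Peg3 (456 to 464) and 6.15 CPM of Il11ra2, which had 0 counts in the other 3.

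For 3 genes the genotype effect at 3 DPI differed from that in uninjured muscle by the interaction test of edgeR on all 16 libraries, which called 1 gene when blocked by replicate number. The difference was -2.40 on the log2 scale for Cdkn1a (adjusted p = 0.000944), -1.95 for Gas6 (adjusted p = 0.0181) and -2.40 for Ccng1 (adjusted p = 0.0181). In uninjured muscle all 4 knockout libraries were above all 4 wild type libraries for each of these genes. What sets these libraries and genes apart was not tested.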

How the results depend on the processing

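The alternatives on 8 libraries were planned, leaving out each library included. Repeating the others on the 7 libraries without knockout replicate 3 was chosen after seeing the data. With 8 libraries, 0 genes were called lower and higher except with quality weights (2 lower), DESeq2 (17 lower, 5 higher), all groups in 1 fit (3 lower), limma with a robust fit (1 higher), the 4 libraries of the shared description code (1 higher) and leaving out 1 library (0 to 13 lower, 0 to 3 higher, the highest without knockout replicate 3). On 7 libraries, the 13 lower and 3 higher became 3 and 1 with limma's robust fit, 8 and 1 with limma-voom, 7 and 1 with quality weights, 80 and 12 with DESeq2 (10172 genes without an adjusted p), 30 and 6 with no filter, 31 and 14 with at least 10 counts in every library, 42 and 2 with all groups, 0 and 0 on the scaled table, 0 and 1 with the shared code, and 2 to 20 and 0 to 5 leaving out another library (2 and 0 without wild type replicate 4, 20 and 5 without knockout replicate 2). At an adjusted p under 0.05 with no minimum fold, 21 were lower and 4 higher. All 16 genes kept their direction under every alternative run on the 7 libraries, but calls were lost: leaving out 1 more library, 7 of the 16 were called in 1 of 7 fits, and the scaled table called none. The cause of these moves was not tested.

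Replicate numbers are shared by the genotypes, but deviations of same-numbered libraries correlated at -0.103, 0.0159, -0.0107 and 0.0236, so the numbers were not taken to pair the samples. With a replicate block, 0 genes were called with 8 libraries, 5 lower and 0 higher with 7, and 1 in the interaction, against 3 without the block. The interaction count was 13 without knockout replicate 3 and 79 with limma. The log2 fold change of Terf2 was 0.32 with the block.

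The Terf2 value reversed to -0.18 with the shared code, in both fits, and ranged from -0.24 to 0.69 leaving out a library besides knockout replicate 3, below 0 without replicate 4. Other values that were not called and reversed were those of Acd (-0.94 robust limma, -0.76 limma-voom, -0.071 quality weights, -0.020 no filter, -0.72 block, -1.50 to 0.38 leaving out 1 library), Pot1b (-0.37 limma-voom, -0.21 block, -0.18 to 0.52 leaving out 1 library), Pecam1 (-0.068 to 0.22 leaving out 1 library), Cdkn1a (0.020 by library size alone, -0.22 to 0.062 leaving out 1 library, 0.018 shared code, also with 7 libraries) and, with the shared code, Vcam1 (0.066), Cd34 (0.037), Itgam (0.023) and Ly6a (0.11). The difference in genes detected at 3 DPI, -2374 in the main count, was -1533 at a minimum of 5 counts and -2083 after thinning, both no longer at p under 0.05, and -1077.5 without knockout replicate 3 (p = 0.0286, exact permutation test), so that 1 library more than doubles it. Totals of 620506 to 1304088 counts limit what can be seen in low genes such as the shelterin subunits.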
